A study of Mus musculus with 45 samples.

Results

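The cytoplasmic ribosomal proteins were described in mouse adipocytes by the mRNA level of 45 genes, out of 18193 genes that had a probe set with a single gene symbol on the array. A gene was a member when the symbol of such a probe set had the form used for the proteins of the large subunit (Rpl), the small subunit (Rps) or the P-stalk (Rplp), followed by a number and at most the letter a, x or l. In all 98 probe sets matched. Of the 45 genes 23 had 1 probe set and 22 had several, with a maximum of 6, and each gene was represented by the probe set with the highest mean over the 45 arrays. The members comprised 22 genes of the large subunit, 21 of the small subunit and 2 of the P-stalk (Rplp0 and Rplp2). Of these, 41 encode core proteins of the ribosome. The other 4 were the paralogs Rpl3l, Rpl39l and Rps27l and the gene Rps4l, which RefSeq annotates as a transcribed pseudogene. A further 28 genes matched the form only on probe sets with several symbols, Rplp1, Rpl5, Rpl10, Rpl3, Rpl23 and Rps27a among them, and received no value of their own.

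Adipocytes were isolated from the parametrial and periovarian fat of female C57BL/6 mice, and the RNA of each mouse was hybridized to its own Affymetrix MG430-2.0 array. All mice lacked ApoE. The D mice were in addition heterozygous for the insulin receptor and for IRS1 (IR+/- IRS1+/- ApoE-/-), a model of insulin resistance, and the E mice were ApoE-/- alone. From 8 weeks of age they received a Western (W) or a chow (C) diet for 16 or 8 weeks, so that the animals were 24 or 16 weeks old at the end. The groups were DW16 (n = 9), DC16 (n = 5), DW8 (n = 5) and DC8 (n = 7) in D mice, and EW16 (n = 8), EC16 (n = 5) and EW8 (n = 6) in E mice. There was no group of E mice on chow for 8 weeks, and no group without the ApoE deletion. The question was how the mRNA of the ribosomal proteins differed with diet, with the duration of the diet and with the genotype.

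The ribosome translates mRNA into protein. Its small subunit decodes the mRNA, its large subunit joins the amino acids, and the P-stalk of the large subunit recruits the elongation factors. The mRNAs of ribosomal proteins in mammals typically begin with a terminal oligopyrimidine (TOP) run of C and T letters, through which the kinase mTOR, which acts downstream of the insulin receptor, controls their translation. Insulin also leads to the phosphorylation of the ribosomal protein encoded by Rps6.

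The start of 5 members is shown because 4 of them passed the test in a comparison described below, whereas Rpl35 is one of the members that were higher in DW16 mice after a further normalization. Each line holds 60 bases of the sense strand from RefSeq (GRCm38.p6), 40 before the annotated start and 20 from it. Capitals mark the longest run of C and T letters of which at least 1 letter lies within 10 bases of the start. The windows are chr17:27635225-27635284 (minus strand) for Rps10, chr5:115559427-115559486 (plus) for Rplp0, chr7:141447611-141447670 (plus) for Rplp2, chr7:109519155-109519214 (plus) for Rpl27a and chr2:39005112-39005171 (minus) for Rpl35.
Rps10: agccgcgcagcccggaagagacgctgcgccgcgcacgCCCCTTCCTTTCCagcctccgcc
Rplp0: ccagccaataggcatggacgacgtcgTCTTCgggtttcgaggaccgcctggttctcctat
Rplp2: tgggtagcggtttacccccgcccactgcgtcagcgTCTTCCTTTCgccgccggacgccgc
Rpl27a: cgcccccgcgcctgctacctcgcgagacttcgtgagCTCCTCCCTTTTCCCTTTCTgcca
Rpl35: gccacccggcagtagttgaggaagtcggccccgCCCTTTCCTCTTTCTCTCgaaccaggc

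The run was 20 bases long in Rpl27a, 18 in Rpl35, 13 in Rps10, 10 in Rplp2 and 5 in Rplp0. That of Rplp0 began 14 bases before the start and lay wholly before it. RefSeq windows of 250 bases before and 50 after the start were at hand for 39 members. A run of at least 6 C or T letters that reached within 10 bases of the start was present in 26 of them (66.7%), and in 32.7% of 27025 genes with such a window. Rplp0 was not among the 26. The letters CCGGAAG or, on the other strand, CTTCCGG, which form a core to which ETS factors can bind, lay in the window of 48.7% of the members and of 9.93% of all genes. AAGATGGC or GCCATCTT, the core of the YY1 motif, was found in 7.69% of the members and in 3.19% of all genes. CACGTG, the E-box, which reads the same on both strands, was found in 10.3% of the members and in 8.09% of all genes. A gene with several annotated starts was counted once, when any of its windows held the letters.

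The deposited values are log2 values from RMA, a method that corrects and summarizes the probes of each probe set, and all levels and differences below are in log2 units. The arrays of 10 mice, DW16 mice 1 to 7 and EW16 mice 1 to 3, spanned a narrower range of values than the other 35, with a 95th percentile of 10.14 to 10.85 on these 10 arrays and of 10.95 to 11.14 on the others. These 10 are referred to as narrow-range arrays, a division made with the values in view, since the sources at hand name no date or batch for an array. All narrow-range arrays belonged to mice with 16 weeks of Western diet. Insr, which encodes the insulin receptor, averaged 9.29 ± 0.28 in DC16 mice and 10.17 ± 0.15 in EC16 mice (SD, n = 5 each). Irs1 averaged 11.03 ± 0.36 in DC16 and 11.21 ± 0.28 in EC16 mice, and these groups overlapped. Apoe, deleted in all mice, had group means between 6.78 and 7.74, with 7.42 ± 0.45 in DC16 and 6.86 ± 0.35 in EC16 mice, and where its probes lie relative to the deletion was not tested. The 7 adipocyte markers measured, of 8 listed, had a mean level between 12.83 and 13.58 in the 7 groups, whereas the lists for other cell types ranged from 5.61 for red cells to 10.52 for fibroblasts and preadipocytes. Single markers overlapped, with Dcn (13.66) and Col3a1 (12.74) of the fibroblast list above Lep (10.64) and Pparg (11.58) of the adipocyte list. Levels of different probe sets do not give the share of a cell type.

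The level of a member is that of the strongest probe set of its gene, because the rule chose it so, and levels of different probe sets also differ in how well the probes bind. The levels are therefore given as a description. The median over the members was 12.58, and 33 of the 45 lay among the strongest 10% of probe sets, 9 between the median of the array and the strongest 10%, and 3 below that median. The highest means were those of Rps2 (13.92), Rps29 (13.80), Rps28 (13.72), Rps4x (13.72) and Rps20 (13.48), all of the small subunit. The lowest were those of Rps16 (3.83), Rpl3l (3.92), Rpl39l (4.13), Rps27 (6.00) and Rpl14 (6.80). Rpl3l and Rpl39l are paralogs best known from striated muscle and from testis. Rps16, Rps27 and Rpl14 encode core proteins, so that a low value of these 3 is the value of the probe set that the rule selected. Of the members 16 (35.6%) were measured by probe sets of the type marked x, which can hybridize to other transcripts, against 5.42% of all probe sets.

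The members differed widely in how much they varied between mice of 1 group. The smallest SD within groups was that of Rpl3l (0.144), followed by Rps16 (0.185), Rpl10a (0.198), Rps18 (0.201) and Rps6 (0.212). Rpl3l and Rps16 were near the low end of the values on the array, so that their small SD cannot be set beside that of the stronger probe sets. The largest was that of Rps15 (0.583), a small subunit protein, followed by Rpl27a (0.551), Rpl19 (0.502), Rpl13a (0.50) and Rps10 (0.466). EW16 was the group with the lowest mean for 21 members, and DW16 for 14. DW16 was also the group with the highest mean for 9 members.

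**Figure D1:**
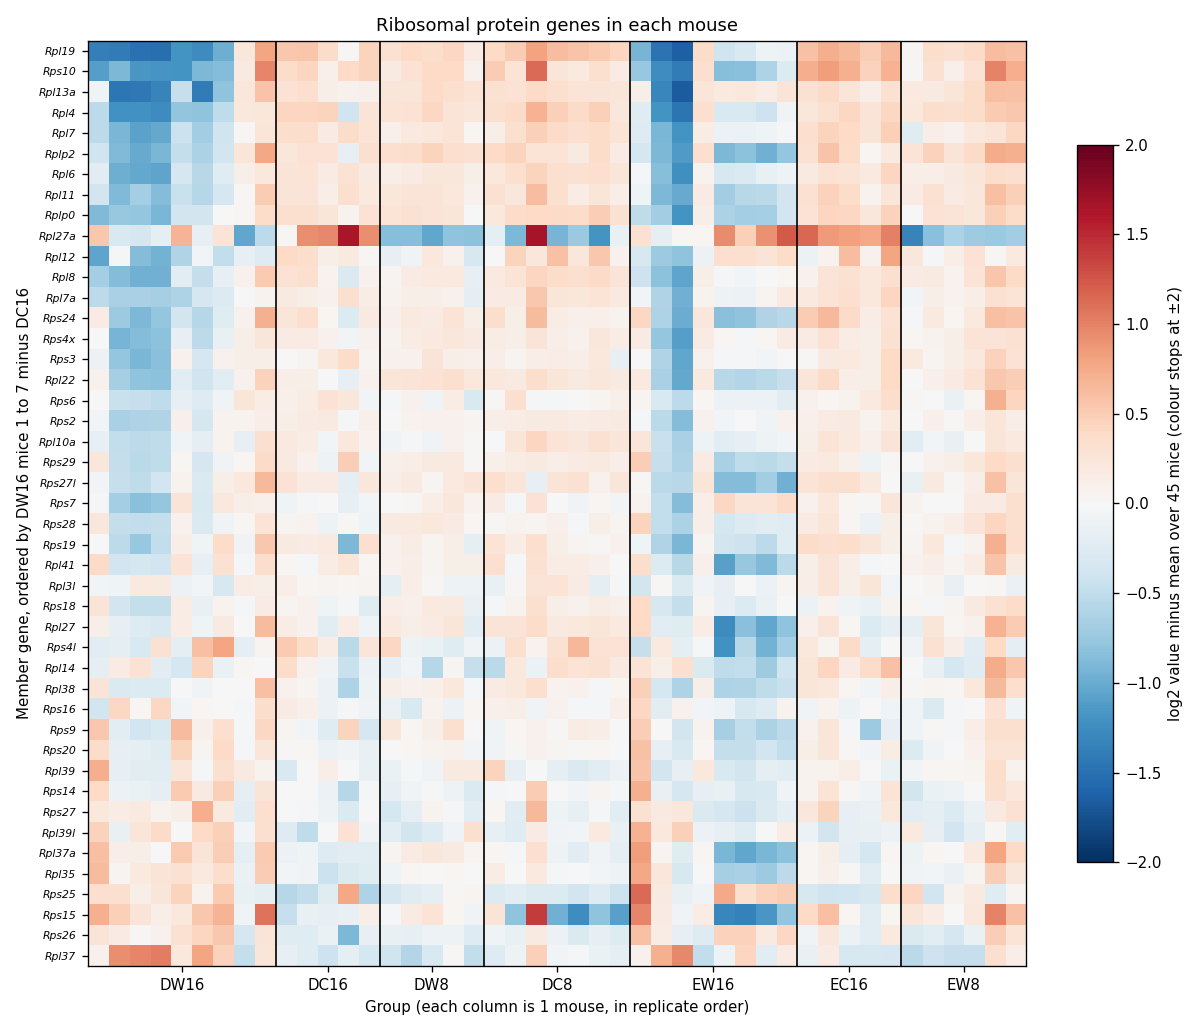
Log2 value of each of the 45 members (rows) in each of the 45 mice (columns, by group), as the difference from the mean of that member over all mice. In DW16 mice 1 to 7 and EW16 mice 1 to 3 Rpl19 and Rps10 were low and Rpl37 was mostly high, whereas EW16 mice 5 to 8 were low in Rps15, Rpl27 and Rplp2.

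The mean over the 45 members was 11.08 ± 0.26 in DW16 mice (SD, n = 9) and 11.28 ± 0.05 in DC16 mice (n = 5). It was 10.98 ± 0.25 in EW16 mice (n = 8) and 11.40 ± 0.09 in EC16 mice (n = 5). The groups with 8 weeks of diet had means of 11.27 ± 0.06 in DW8 mice (n = 5), 11.35 ± 0.10 in DC8 mice (n = 7) and 11.36 ± 0.18 in EW8 mice (n = 6). The lower means came with a large spread. DW16 mice 1 to 7 lay between 10.76 and 11.24, and DW16 mouse 8 at 11.20 and mouse 9 at 11.55. EW16 mice 1 to 3 lay between 10.62 and 11.39, EW16 mouse 4 at 11.28 and EW16 mice 5 to 8 between 10.88 and 11.05. EW16 mice 5 to 8, set apart from mouse 4 after the values had been seen, were therefore low on arrays of the usual range.

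**Figure D2:**
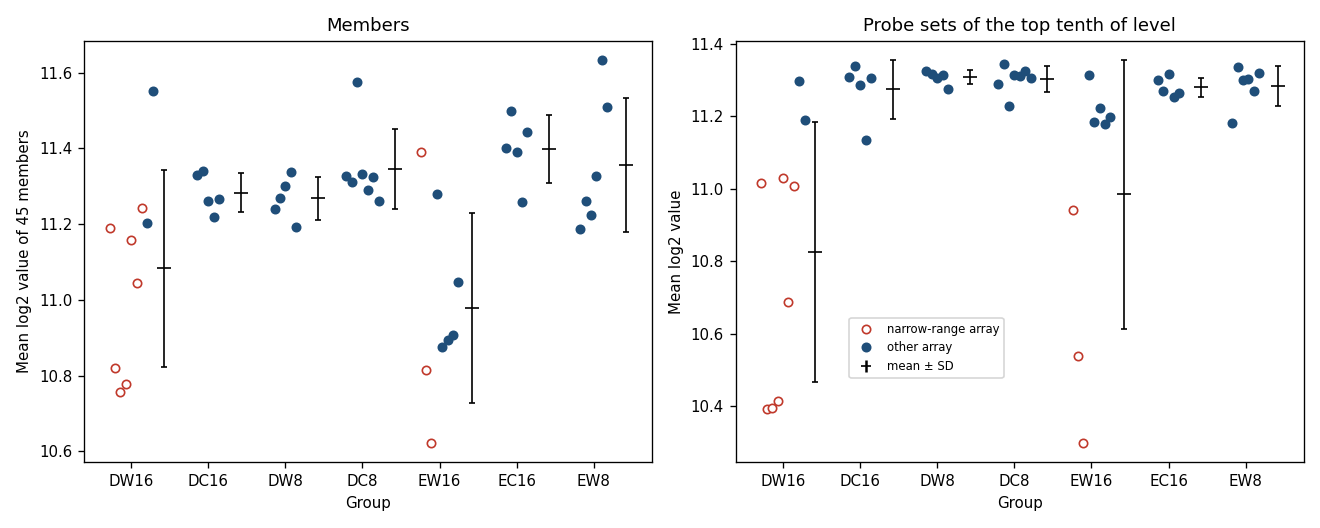
Mean log2 value of the 45 members (left) and of the strongest 10% of probe sets by mean level (right) in each mouse, by group, with narrow-range arrays as open red circles and the mean ± SD of a group as a bar. The mean of the strongest 10% was between 11.18 and 11.22 in EW16 mice 5 to 8, whose member means were between 10.88 and 11.05, and it was lowest, at 10.30, on a narrow-range array of EW16.

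After 16 weeks of Western diet none of the chosen probe sets of the 45 members passed the test in D mice, and the differences lay on both sides of 0. Compared with DC16 mice, Rpl19, a protein of the large subunit, was lower by 1.30 (SE 0.344), Rps10 by 1.03 (SE 0.311), Rpl27a by 1.01 (SE 0.276) and Rpl4 by 0.88 (SE 0.257). At the other end the differences were 0.74 (SE 0.214) for Rpl37, 0.60 (SE 0.165) for Rps15, 0.53 (SE 0.149) for Rps26 and 0.48 (SE 0.119) for Rpl35. None of these passed the threshold, an adjusted p of 0.01 in limma over all 45037 probe sets. The adjusted p was 0.0194 for Rpl19, 0.0216 for Rpl27a, 0.0265 for Rpl37 and 0.0150 for Rpl35, and the smallest of any member was that of Rpl7a (0.0119).

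Thus 0 of 45 members passed in DW16 against DC16 in either direction, whereas 2.63% of all probe sets passed as lower and 0.797% as higher. Among the strongest 10%, 5.24% passed as lower and 0.466% as higher. At an unadjusted p under 0.05 there were 24 members (53.3%), against 37.9% of all probe sets. SAM, a permutation method that the study used beside limma, called 16 (35.6%), of which 11 were lower, against 21.1% of all probe sets. The difference was below 0 for 29 members and above 0 for 16, with a median of -0.15, which lay between -0.25 (without DC16 mouse 4) and -0.09 (without DW16 mouse 3) when 1 mouse was left out. All probe sets had a median of 0.04 and those of the strongest 10% of -0.44. The direction of the median turned with the scaling. After a further quantile normalization, which gives all arrays the same distribution, the median of the members was 0.18, and 4 members were called higher in DW16 mice, Rps20, Rpl37a, Rpl35 and Rps15, against 1.54% of all probe sets as higher and 1.67% as lower. The median of the strongest 10% was then -0.04.

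Rpl19 had values of 11.37 to 13.65 in DW16 mice, with a median of 11.61, and of 13.41, 13.42, 13.24, 12.90 and 13.32 in DC16 mice. DW16 mice 1 to 7 lay between 11.37 and 11.89 and thus below every DC16 mouse, but DW16 mice 8 (13.10) and 9 (13.65) did not, and the groups overlapped. For Rps10, DW16 mice ranged from 10.54 to 12.71 with a median of 10.83, and DC16 mice had 12.11, 12.16, 11.84, 12.13 and 12.18. Again DW16 mice 8 (11.92) and 9 (12.71) lay within or above the values of the DC16 mice. Rpl35 was between 12.44 and 13.22 in DW16 mice, with a median of 12.84, and at 12.53, 12.50, 12.15, 12.29 and 12.33 in DC16 mice. Of the DW16 mice only mouse 8, at 12.44, lay within the values of the DC16 mice. Rps15 had a median of 11.40 in DW16 mice, with 10.84 in mouse 8 as the lowest value, and DC16 mice had 10.45, 10.78, 10.76, 10.77 and 11.03. Only DW16 mouse 8 lay clearly within the values of the DC16 mice.

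The groups did not overlap for 2 of 45 members, Rpl12 and Rpl7a, which were lower in all DW16 mice than in any DC16 mouse. Among all probe sets 1.96% were lower without overlap and 1.67% higher. In DW8 against DC8 it was Rpl7a and Rps2 that were lower without overlap, against 1.16% of all probe sets. With the narrow-range arrays left out, DW16 mice 8 and 9 remained, and the median difference of the members from DC16 mice was 0.15, with 34 of 45 above 0. Then 0 members were called, against 0% of all probe sets in both directions.

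**Figure D3:**
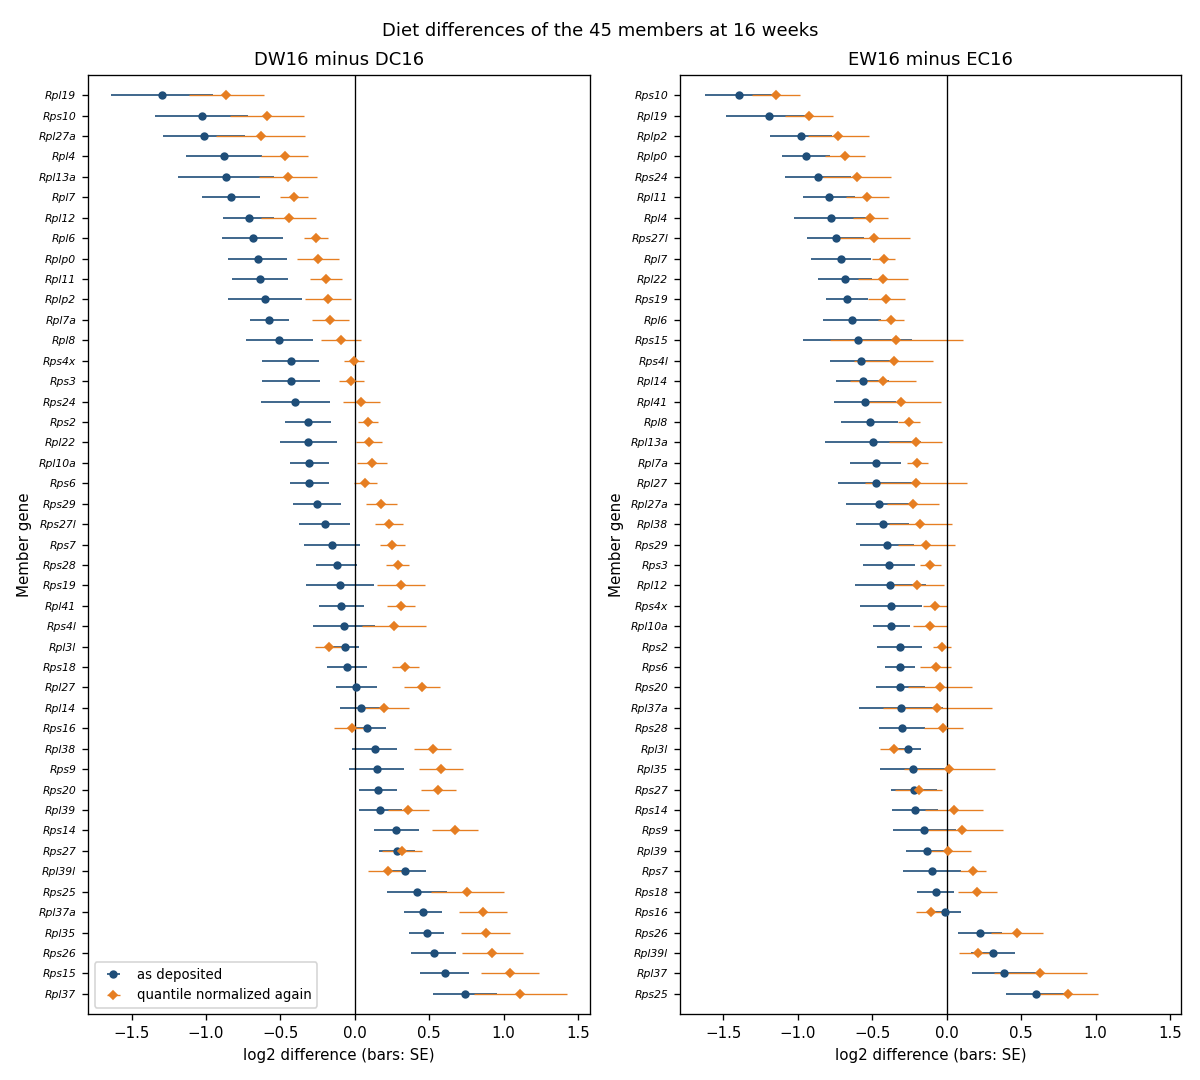
Difference of each member in log2 units with its SE, DW16 minus DC16 (left, n = 9 and 5) and EW16 minus EC16 (right, n = 8 and 5), for the deposited values (circles) and after a further quantile normalization (diamonds). The further normalization moved the median of the members from -0.15 to 0.18 in D mice and from -0.40 to -0.20 in E mice.

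In E mice the same comparison gave 2 calls among the chosen probe sets, both lower with Western diet. Rps10, a protein of the small subunit, was 2.63-fold lower in EW16 than in EC16 mice (log2 difference -1.40, SE 0.231, adjusted p = 0.0041, limma). Rplp0, the protein of the P-stalk that anchors it to the large subunit, was 1.92-fold lower (-0.94, SE 0.162, adjusted p = 0.0046). Rpl19 (-1.19, SE 0.293, adjusted p = 0.0226) and Rplp2 (-0.98, SE 0.208, adjusted p = 0.0115) did not pass. The 2 calls were read against 2.39% of all probe sets that passed as lower and 4.33% of those among the strongest 10% of probe sets. As higher, 0 members passed, against 0.271% of all probe sets. An unadjusted p under 0.05 in either direction was found for 24 members (53.3%), against 27.7% of all probe sets. SAM called 15 members (33.3%), all lower, against 10.2% of all probe sets, and the 2 calls by limma were among them.

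Rps10 ranged from 10.34 to 12.07 in EW16 mice with a median of 10.94, and EC16 mice had 12.47, 12.57, 12.45, 12.20 and 12.44. All EW16 mice were lower than every EC16 mouse, although mouse 4 (12.07) was close. Rplp0 ranged from 12.17 to 13.48 in EW16 mice, with a median of 12.72, and EC16 mice had 13.65, 13.80, 13.79, 13.59 and 13.82. Here too the groups did not overlap. In total 7 of 45 members were without overlap and lower in EW16 mice, Rpl19, Rpl6, Rpl7, Rpl7a, Rplp0, Rps10 and Rps19, against 3.39% of all probe sets, and 0 were higher, against 1.36%. Rps19 is the gene most often mutated in human Diamond-Blackfan anemia.

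The difference was below 0 for 41 of 45 members, with a median of -0.40, against 0.06 for all probe sets and -0.28 for the strongest 10%. After the further quantile normalization the median was -0.20, and 4 members were called lower, Rps10, Rplp0, Rpl19 and Rpl7, against 1.68% of all probe sets as lower and 0.953% as higher. With the 3 narrow-range arrays left out (n = 5 and 5) 10 members were called lower and 0 higher, against 3.95% and 3.07% of all probe sets, and the median was -0.42. With EW16 mice 5 to 8 left out instead, 0 were called, against 0.00222% of all probe sets as lower and 0% as higher. Leaving out any 1 of the 5 EC16 mice ended both calls, and leaving out EW16 mouse 5, 6 or 7 ended that of Rplp0, with adjusted p-values of up to 0.0173.

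**Figure D4:**
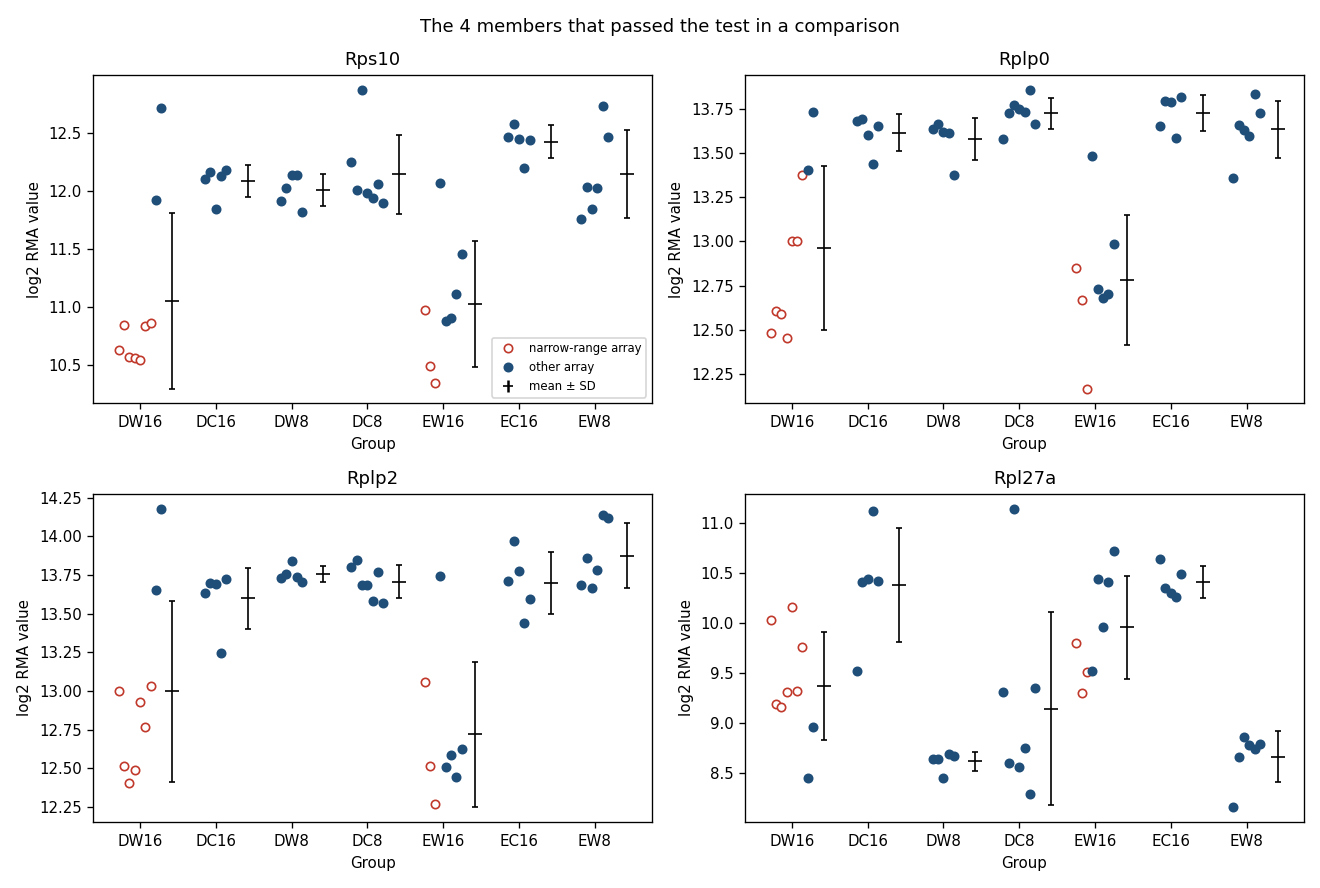
Log2 RMA value of the 4 members that passed the test in at least 1 comparison, in each mouse by group, with narrow-range arrays as open red circles and the mean ± SD of a group as a bar. Rps10 and Rplp0 were lower in all EW16 mice than in any EC16 mouse, and Rpl27a was between 9.31 and 10.72 in EW16 mice and between 8.16 and 8.87 in EW8 mice.

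The narrow-range arrays of D and E mice showed nearly the same order of members. Relative to their own chow groups, DW16 mice 1 to 7 (n = 7) were lowest in Rpl19 (-1.70), Rps10 (-1.39) and Rpl13a (-1.17) and highest in Rpl37 (0.91). EW16 mice 1 to 3 (n = 3) were lowest in Rpl19 (-1.96), Rps10 (-1.82) and Rpl4 (-1.29) and highest in Rpl37 (0.78). Over the 45 members the correlation of the 2 sets of differences was r = 0.965, and 40 had the same sign. Over the 4504 probe sets of the strongest 10% it was r = 0.934, a likeness that other strong probe sets shared. Members are not independent of each other, and these coefficients describe the arrays only. The medians of the members were -0.25 in DW16 mice 1 to 7 and -0.41 in EW16 mice 1 to 3, and those of the strongest 10% were -0.55 and -0.68 in the same mice.

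**Figure D5:**
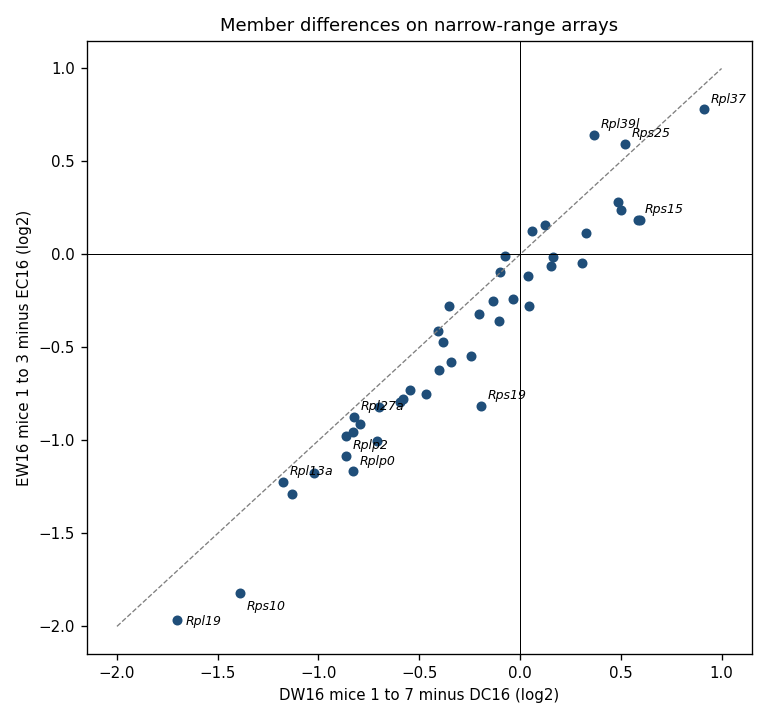
Difference of each of the 45 members from the chow group of the same genotype on the narrow-range arrays, DW16 mice 1 to 7 minus DC16 (x axis, log2) against EW16 mice 1 to 3 minus EC16 (y axis, log2); the dashed line marks equal differences. The members lie along the line, with Rpl19 and Rps10 lowest and Rpl37 highest in both, and most points are below it.

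EW16 mice 5 to 8, a set formed after the values had been seen, had another order, on arrays of the usual range. Relative to EC16 mice they were lowest in Rps10 (-1.33), Rps15 (-1.33) and Rplp2 (-1.16), and Rps24 (-1.09), Rps27l (-1.07), Rpl27 (-0.98) and Rpl41 (-0.91) were also low. The chosen probe set of Rpl13a, of the type marked x, was near the level of EC16 mice, at -0.07, although it was among the lowest on the narrow-range arrays. Over all EW16 mice it differed from EC16 mice by -0.50, and the other probe sets of Rpl13a by -1.21, -0.45 and -1.02. Whether these were also near the level of EC16 mice in EW16 mice 5 to 8 was not tested. Of the 45 members 39 were below 0 in these 4 mice, with a median of -0.46. The median of the strongest 10% was -0.05. Rps15 was at 9.61, 9.56, 9.75 and 10.13 in EW16 mice 5 to 8 and between 10.70 and 11.53 in EC16 mice. EW16 mouse 4 was near the chow level, with a median of -0.06 over the members.

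After 8 weeks of diet no member passed the test. In DW8 against DC8, 0 of 45 passed as lower and 0 as higher in limma, against 0.155% and 0.921% of all probe sets in these directions, and 0 were called by SAM. At an unadjusted p under 0.05 there were 10 (22.2%), against 19.1% of all probe sets. The median difference was -0.08, with 33 members below 0, and it was -0.03 without DC8 mouse 3. The smallest adjusted p was that of Rpl10a (0.0584), which was lower by 0.26 (SE 0.074). Rps15 differed by 0.54 (SE 0.367), with 10.89, 11.08, 11.20, 10.95 and 10.84 in DW8 mice and 9.68 to 12.32, with a median of 10.11, in DC8 mice. The values of the DW8 mice lay within the range of the DC8 mice, since DC8 mouse 3 was at 12.32 and the next highest, mouse 1, at 11.18.

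The difference between 16 and 8 weeks was compared within diet and genotype. In D mice on Western diet (DW16 against DW8) 0 members passed in limma, against 4.48% of all probe sets as lower and 0.933% as higher, and 23 (51.1%) had an unadjusted p under 0.05, against 39.6% of all probe sets. The groups overlapped for all 45 members, whereas 2.57% of all probe sets were lower without overlap and 1.59% higher. The median was -0.18 as deposited and 0.20 after the further quantile normalization, with 3 members then called higher, Rps14, Rps15 and Rpl27a, against 2.68% of all probe sets as higher and 2.82% as lower. In E mice on Western diet (EW16 against EW8) 2 members were lower and 1 was higher, against 1.43% and 0.142% of all probe sets. Rplp2 was 2.23-fold lower (-1.16, SE 0.194, adjusted p = 0.0065) and Rplp0 1.80-fold lower (-0.85, SE 0.154, adjusted p = 0.0072). In all 40 of 45 members were below 0, with a median of -0.41, and 26 (57.8%) had an unadjusted p under 0.05, against 30.4% of all probe sets. Rplp2 ranged from 12.27 to 13.74 in EW16 mice, with a median of 12.55, and from 13.67 to 14.14 in EW8 mice, with a median of 13.82. EW16 mouse 4, at 13.74, was the only one within the values of the EW8 mice. In D mice on chow (DC16 against DC8) 0 members passed, against 0% of all probe sets as lower and 0% as higher, and 6 (13.3%) had an unadjusted p under 0.05, against 8.74% of all probe sets. There 2 members, Rpl22 and Rpl27, were lower without overlap, against 0.275% of all probe sets, and 0 were higher, against 0.395%. After the further quantile normalization Rpl4 was called lower and Rpl27a higher in EW16 against EW8, against 0.693% and 0.231% of all probe sets in these directions. The 3 calls on the deposited values were lost without the narrow-range arrays, without EW16 mice 5 to 8, and in 13 of the 14 fits without 1 mouse, in which the highest adjusted p was 0.0204. The exception was the fit without EW16 mouse 4, in which 9 members were called lower and 1 higher, against 5.87% and 1.45% of all probe sets.

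Rpl27a, a protein of the large subunit, was the member that differed most between group means. In E mice it was 2.45-fold higher in EW16 than in EW8 mice (1.29, SE 0.214, adjusted p = 0.0065, limma), with 9.31 to 10.72 in EW16 mice (median 9.88) and 8.16 to 8.87 in EW8 mice (median 8.76), and no overlap. It was the 1 member higher without overlap, against 0.608% of all probe sets, and Rpl6 the 1 lower, against 0.973%. In D mice on chow it averaged 10.39 ± 0.57 in DC16 mice (SD, n = 5) and 9.15 ± 0.97 in DC8 mice (n = 7), a difference of 1.24 (SE 0.409) that did not pass (adjusted p = 0.389). DC8 mouse 3, at 11.15, was higher than all DC16 mice, whereas the other 6 DC8 mice lay between 8.29 and 9.35. In D mice on Western diet it averaged 9.37 ± 0.54 in DW16 mice (n = 9) and 8.62 ± 0.10 in DW8 mice (n = 5), a difference of 0.75 (SE 0.225, adjusted p = 0.028). DW16 mouse 8, at 8.45, was at the level of the DW8 mice. EC16 mice had 10.65, 10.35, 10.31, 10.26 and 10.50. In order of group means Rpl27a was highest in EC16 (10.41) and DC16 (10.39), followed by EW16 (9.96), DW16 (9.37), DC8 (9.15), EW8 (8.67) and DW8 (8.62). The neighbours EC16 and DC16, and EW8 and DW8, did not differ beyond their spread.

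The genotype made no difference that passed the test for a member. In DW16 against EW16 0 of 45 passed in limma, against 0% of all probe sets as lower and 0% as higher, and 10 members (22.2%) had an unadjusted p under 0.05, against 14.6% of all probe sets. Rps15 had the smallest p, with a difference of 0.87 (SE 0.287, adjusted p = 0.247). Within the narrow-range arrays (n = 7 and 3) the median of the members was 0.07, and within the others (n = 2 and 5) it was 0.35. In DW8 against EW8 0 passed, against 0% of all probe sets as lower and 0% as higher, and 0 had an unadjusted p under 0.05, against 4.13% of all probe sets. In DC16 against EC16 0 passed, against 0% as lower and 0.00222% as higher, and 8 (17.8%) had an unadjusted p under 0.05, against 6.27% of all probe sets. The median was -0.09, and 39 of 45 were below 0. Rps10 had the smallest p, 12.11, 12.16, 11.84, 12.13 and 12.18 in DC16 mice and 12.47, 12.57, 12.45, 12.20 and 12.44 in EC16 mice, a difference of -0.34 (SE 0.093, adjusted p = 0.764) without overlap. Rps10 and Rps7 were the 2 members without overlap there, both lower in DC16 mice, against 0.522% of all probe sets. In DW16 against EW16 0 members were without overlap, against 0.00222% of all probe sets as lower and 0.0111% as higher, and in DW8 against EW8 0 were, against 0.158% as lower and 0.213% as higher.

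Whether the diet difference at 16 weeks was another in D than in E mice was tested with an interaction term in limma. Again 0 members passed, against 0% of all probe sets as lower and 0% as higher, and 9 (20%) had an unadjusted p under 0.05, against 6.31% of all probe sets. For the 2 members called in E mice the difference between the genotypes was 0.37 (SE 0.410, adjusted p = 0.883) for Rps10 and 0.29 (SE 0.266, adjusted p = 0.857) for Rplp0. The largest was that of Rps15, with 1.20 (SE 0.408, adjusted p = 0.786). The diet difference in D mice after 16 weeks was likewise set against that after 8 weeks. There 0 members passed, against 0.00444% of all probe sets as lower and 0% as higher, and 17 (37.8%) had an unadjusted p under 0.05, against 27.7% of all probe sets. Rpl37, with 1.06 (SE 0.266, adjusted p = 0.0284), and Rpl35, with 0.50 (SE 0.140, adjusted p = 0.0370), came closest.

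By subunit, the median difference in DW16 against DC16 was -0.31 for the 22 genes of the large subunit, -0.10 for the 21 of the small subunit and -0.63 for the 2 of the P-stalk. After the further quantile normalization these medians were 0.00, 0.26 and -0.21 in the same order. In EW16 against EC16 they were -0.47, -0.31 and -0.96, and -0.22, -0.08 and -0.71 after it. Rplp2 averaged 13.00 ± 0.58 in DW16 and 13.60 ± 0.20 in DC16 mice, and 12.72 ± 0.47 in EW16 and 13.70 ± 0.20 in EC16 mice (SD). Rps6, whose protein is phosphorylated after insulin, had differences of -0.31 in D mice (SE 0.130, adjusted p = 0.0992) and of -0.31 in E mice (SE 0.102, adjusted p = 0.0703). Rpl11, which binds MDM2 when ribosome assembly is disturbed, had differences of -0.64 in D mice (SE 0.189, adjusted p = 0.0298) and of -0.79 in E mice (SE 0.176, adjusted p = 0.0142). Rps3 of the mRNA entry site had -0.43 in D mice and -0.39 in E mice.

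Among genes often used to normalize other measurements, the chosen probe set of Rps18, of the type marked x, had a difference of -0.05 in D mice (SE 0.136) and of -0.07 in E mice (SE 0.125). Its next 2 probe sets by level had -0.61 and -0.60 in D mice and -0.66 and -0.79 in E mice, none of them called. Rpl19, Rpl13a and Rplp0 ranged from -1.30 to -0.65 in D mice and from -1.19 to -0.50 in E mice. Of these values only that of Rplp0 in E mice passed. Rpl38, which in mice is needed for the translation of Hox mRNAs, had 0.13 in D mice and -0.43 in E mice. Rpl22 had -0.31 in D mice (SE 0.190) and -0.68 in E mice (SE 0.184, adjusted p = 0.0336). Of the paralogs, Rps27l, a p53 target, averaged 10.67 in DW16 and 10.88 in DC16 mice, and 10.22 in EW16 and 10.97 in EC16 mice (difference -0.75, SE 0.191, adjusted p = 0.0268). Rpl3l and Rpl39l stayed between 3.80 and 4.36 in these 4 groups, and their differences of -0.26 to 0.34 did not pass. Rpl39, the core counterpart of Rpl39l, had 0.17 in D mice and -0.13 in E mice. Rps27, that of Rps27l, had 0.28 in D mice and -0.22 in E mice.

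The probe sets of a gene did not always move alike. Of the members 19 had at least 2 probe sets above the median level of the array. In DW16 against DC16 all probe sets were lower for 9 of these genes, all higher for 6, and of both signs for 4. In EW16 against EC16 all were lower for 17 and of both signs for 2. The median spread between the probe sets of a gene was 0.40 in the D comparison and 0.22 in the E comparison, and the largest was 1.35, for Rps10 in E mice. With the mean over all its probe sets, Rps10 differed by -0.75 in EW16 against EC16 and was still called. For Rpl27a the same mean differed by 0.68 in EW16 against EW8 and was called. The other probe set of Rpl27a, with a level of 4.03, differed by 0.08 there (adjusted p = 0.497, limma). The difference of this mean therefore came from the chosen probe set. Some probe sets that the rule did not choose passed as well (limma). In EW16 against EC16 they were those of Rpl7 (-1.39, adjusted p = 0.0028, and -0.53, 0.0070) and Rps10 (-1.01, 0.0085, and -1.14, 0.0078). In EW16 against EW8 it was one of Rpl7 (-1.13, 0.0072). In DW16 against DW8 they were one of Rps15 (0.78, 0.0091) and one of Rps20 with a level of 5.44 (-0.53, 0.0060). Probe sets with several symbols that include a ribosomal protein numbered 110. In DW16 against DC16 their median was -0.14, with 1 lower and 1 higher, against 2.63% and 0.797% of all probe sets. In EW16 against EC16 it was -0.35, with 9 lower, against 2.39%. The medians of the strongest 10% of probe sets were -0.44 and -0.28 in these comparisons.

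Other genes of the translation apparatus were taken from fixed lists. Their counts in DW16 against DC16 stand beside 2.63% of all probe sets as lower and 0.797% as higher, and beside a median of -0.44 for the strongest 10%, of which 82.2% were below 0. All 25 measured initiation factors were below 0, with a median of -0.62 (-0.20 after the further quantile normalization), and 1 was called lower, Eif4g3 (-1.08, adjusted p = 0.0059). The 5 elongation factors had a median of -0.38 with 0 calls, and Eef2, which moves the ribosome along the mRNA, had -1.51 (adjusted p = 0.0161). Of 35 ribosome biogenesis genes 1 was lower and 1 higher, Ltv1 of small subunit maturation (-0.56, adjusted p = 0.0067) and Nop10 of the box H/ACA particles (0.89, adjusted p = 0.0039). Of 13 genes of RNA polymerase I, which transcribes ribosomal RNA, Taf1b was lower (-1.03, adjusted p = 0.0013). Of 13 genes between mTOR and the ribosome 2 were lower, Rptor, the partner of mTOR in its complex that senses nutrients (-0.95, adjusted p = 0.0079), and Tsc2, an inhibitor of that complex (-1.79, adjusted p = 0.0082). The median over these 13 was -0.71. The 76 mitochondrial ribosomal proteins had a median of -0.27, with 3 lower and 1 higher.

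In EW16 against EC16 2.39% of all probe sets passed as lower and 0.271% as higher. Of the initiation factors 3 were lower, Eif3b, Eif3c and Eif3d, whose differences ranged from -1.11 to -0.89. Of the biogenesis genes 4 were lower, of those between mTOR and the ribosome 2, and of the mitochondrial ribosomal proteins 11, with list medians of -0.38, -0.46 and -0.42, against a median of -0.28 for the strongest 10% of probe sets and 0.06 for all. After the further quantile normalization the medians of these 3 lists were -0.17, -0.26 and -0.19. The other 11 genes known for TOP mRNAs had medians of -0.26 in D mice and -0.31 in E mice, with 0 calls in each.

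Markers of cell types were measured in the same mice. The 7 adipocyte markers averaged 12.83 in DW16 and 13.27 in DC16 mice, and mouse means ranged from 12.20 to 13.47 and from 13.12 to 13.47 in these groups. They averaged 12.93 in EW16 mice (11.92 to 13.39) and 13.17 in EC16 mice (13.10 to 13.25). The 5 endothelial markers averaged 8.23 in DW16 mice (7.75 to 9.38) and 9.14 in DC16 mice (8.95 to 9.38). The 5 mesothelial markers averaged 6.43 in DW16 mice (5.73 to 7.91) and 7.42 in DC16 mice (6.53 to 8.06). They averaged 6.60 in EW16 mice (6.13 to 7.44) and 7.84 in EC16 mice (7.45 to 8.47). Of these 5, Upk3b, Krt19 and Wt1 were called lower, against 2.39% of all probe sets. Calls of the other marker lists, and calls of markers in D mice, are not given here. The paper's own list of genes that differed between DW16 and DC16 mice includes Plin4, Pecam1, Lrrn4, Cd3e, Lyz2 and Ighm. The endothelial list averaged 8.87 in EW16 and 9.21 in EC16 mice. The 6 macrophage markers averaged 8.94 in DW16 and 9.37 in DC16 mice, and 9.40 in EW16 and 9.58 in EC16 mice. The 6 lymphocyte markers averaged 5.95 in DW16 and 6.24 in DC16 mice, and 6.12 in EW16 and 6.38 in EC16 mice. The 5 fibroblast and preadipocyte markers averaged 9.82 in DW16 and 10.23 in DC16 mice, and 10.16 in EW16 and 10.48 in EC16 mice. The 5 markers of ovary and reproductive tract epithelium averaged 6.87 in DW16 and 6.89 in DC16 mice, and 6.59 in EW16 and 6.92 in EC16 mice. The 2 red cell markers averaged 6.05 in DW16 and 5.83 in DC16 mice, and 5.95 in EW16 and 5.76 in EC16 mice. Their part in the differences of the ribosomal protein genes was not tested. In RNA of whole cell preparations, fewer cells of a type and less RNA per cell cannot be told apart.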

How the data were processed

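The authors hybridized adipocyte RNA of 45 mice to Affymetrix MG430-2.0 arrays (1 array for each mouse), scaled the scans globally and ran RMA express. The deposited table holds log2 values of 45037 probe sets. The version, and whether all arrays entered 1 run, is not given in the sources used here. All columns were used (0 left out). In the platform annotation 34945 probe sets had 1 symbol, 932 several and 9160 none.

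Pairs of groups were compared by lmFit and eBayes of limma 3.58.1 (R 4.3.3). P-values were adjusted by Benjamini-Hochberg across the 45037 probe sets, the threshold was 0.01, and no probe set was filtered. The 2 interaction terms were fitted on their 4 groups. SAM was written anew, with 100 permutations. Tables and plots were made with Python 3.11.15, pandas 2.3.3, NumPy 2.4.6 and Matplotlib 3.10.9. The fits were tested on simulated data. P-values set a difference against the spread between mice within groups. In DW16 and EW16 that spread includes the one between narrow-range and other arrays. The number of mice limits the precision. With the replicate block DW16 mice 6 to 9, of which 8 and 9 had arrays of the usual range, had no DC16 or DW8 mouse of their number. The effect of the block was not separated from that of these mice.

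Alternatives were a further quantile normalization, centring on the median, the narrow-range arrays left out, an adjusted p of 0.05, 1 spread over 7 groups, a filter on level, eBayes with trend and robust, the mean over all probe sets of a gene, a replicate block, each mouse left out and calls by limma and SAM. Chosen after seeing the data were EW16 mice 5 to 8 left out and levels relative to the strongest 10% of probe sets. The members and lists were chosen with earlier results of these data known. Named members are those called (up to 10 in each direction), the 5 highest and lowest by level and by SD within groups, and fixed role genes. Rpl4, Rpl6, Rpl7, Rpl7a, Rpl12, Rpl27, Rpl35, Rpl37, Rpl37a, Rpl41, Rps7, Rps14, Rps24 and Rps26 were named after their values had been seen, as the ends of an order or the members of a small count. Up to 4 genes of other lists were named, those with the smallest p in DW16 against DC16; those named for EW16 against EC16 were named after their values had been seen.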

Additional observations from a re-analysis of the deposited data

Results flagged for a closer look

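In each group of 5 to 9 mice the highest and the lowest mouse were compared with Dixon's critical value, for the mean over the 45 members and for the 4 members that passed a test. Of 35 such sets of mice 8 had a mouse far from the others, and chance gives about 1 in 20. DC8 mouse 3 stood out 3 times, with a member mean of 11.58 where the other 6 mice lay between 11.26 and 11.33, with Rpl27a at 11.15 where the next was at 9.35, and with Rps10 at 12.87 where the next was at 12.25. Rpl27a was also set apart at the low end in DW8 mouse 3, at 8.45 with the nearest at 8.64, and in EW8 mouse 1, at 8.16 with the nearest at 8.66. Rplp0 was low in DW8 mouse 5 (13.37, nearest 13.61), Rplp2 in DC16 mouse 4 (13.25, nearest 13.63) and Rps10 in DC16 mouse 3 (11.84, nearest 12.11). In all 5 of these the other mice of the group spanned less than the gap.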

How the results depend on the processing

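Relative to the threshold of 0.01, the number of members called in DW16 against DC16 was 0, and it was 15 at an adjusted p of 0.05, 4 after quantile normalization again, 2 with arrays centred on their median, 12 with 1 spread over all 7 groups, 2 among probe sets above the median level and 5 relative to the strongest 10% of probe sets. Of all probe sets 13.7% were lower and 7.65% higher at 0.05, and 1.67% and 1.54% after quantile normalization again. The shares were 3.82% and 0.637% with centring and 11% and 6.18% with 1 spread. They were 9.93% and 1.47% above the median level and 1.1% and 4.77% relative to the strongest 10%. Leaving out 1 mouse gave 0 to 11, with 11 without DW16 mouse 8 and 10 without DW16 mouse 9, fits in which 9.99% and 9.21% of all probe sets were lower and 3.42% and 2.44% higher. The median of the members, -0.15, was 0.18 after quantile normalization again, 0.15 without narrow-range arrays and 0.30 relative to the strongest 10%. For EW16 against EC16 the 2 calls became 10 at 0.05, 4 after quantile normalization again, 4 with centring, 10 without narrow-range arrays, 11 with 1 spread, 4 above the median level and 0 without EW16 mice 5 to 8. Of all probe sets 7.16% were lower and 2.1% higher at 0.05, and 1.68% and 0.953% after quantile normalization again. The shares were 2.95% and 0.238% with centring, 3.95% and 3.07% without narrow-range arrays and 5.87% and 1.43% with 1 spread. They were 5.65% and 0.497% above the median level and 0.00222% and 0% without EW16 mice 5 to 8. The range without 1 mouse was 0 to 9, with 9 without EW16 mouse 4, where 5.96% of all probe sets were lower and 1.1% higher. The median was -0.11 relative to the strongest 10%. For DW16 against DW8 the count of 0 became 14 at 0.05, 3 after quantile normalization again, 12 with 1 spread, 1 above the median level and 10 relative to the strongest 10%, and 0 to 10 without 1 mouse, with 7 without DW16 mouse 8 and 10 without mouse 9. At 0.05 14.6% of all probe sets were lower and 8.44% higher, and 2.82% and 2.68% after quantile normalization again. The shares were 10.3% and 5.22% with 1 spread and 13.7% and 1.86% above the median level. Relative to the strongest 10% all 10 members were higher, against 20.9% of all probe sets, and 2.26% were lower. The shares were 11.8% and 4.37% without DW16 mouse 8 and 9.8% and 2.44% without mouse 9. The median was 0.20 after quantile normalization again, 0.09 without narrow-range arrays and 0.31 relative to the strongest 10%. For EW16 against EW8 the 3 calls became 12 at 0.05, 0 without narrow-range arrays, 16 with 1 spread, 5 above the median level, 0 without EW16 mice 5 to 8 and 1 relative to the strongest 10%, and 0 to 10 without 1 mouse. Its median was -0.17 after quantile normalization again and -0.11 relative to the strongest 10%. In the difference between durations 2 were called at 0.05 and 0 to 3 without 1 mouse, and the median of -0.18 was 0.19 after quantile normalization again and 0.15 without narrow-range arrays. Of all probe sets 4.89% were lower and 1.57% higher there at 0.05. The highest count came without DW16 mouse 8, with 5.5% and 1.25%, and without mouse 9, with 3.1% and 0.431%. In the difference between genotypes the median of 0.20 was 0.47 without narrow-range arrays. Without 1 mouse the median in DW8 against DC8 was -0.09 to -0.03 (without DC8 mouse 3). In DW8 against EW8 it was -0.12 to -0.02 (without EW8 mouse 5). In DW16 against EW16 it was 0.06 (without DW16 mouse 9) to 0.19 (without EW16 mouse 1). In the difference between durations it was -0.23 to -0.11 (without DW16 mouse 3). The causes were not tested, beyond the smaller groups when mice were left out.

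In no comparison did all pairs of a replicate number deviate together. The correlation was over 0.1 in 2 of 5 pairs in DW16 against DC16 and 3 of 5 in EW16 against EC16. In DW16 against EW16 it was in 5 of 8 (highest 0.625). With this number as block DW16 mice 6 to 9 had no DC16 or DW8 partner. Then 13 were called in DW16 against DC16, 14 against DW8 and 12 in the difference between durations. Most were lower, as were 13.6%, 14.1% and 9.98% of all probe sets, with 3.72%, 3.78% and 2.44% higher. In EW16 against EC16 or EW8 0 were called, against 0%.

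The counts in DW8 against DC8, DC16 against DC8, the 3 comparisons of genotypes and the difference between genotypes were 0 under all alternatives run. Of the strongest 10%, 82.2% were below 0 in DW16 against DC16 (52.9% after quantile normalization again).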
